A study of Macaca fascicularis with 3 samples.

Results

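Premeiotic germ cells of the cynomolgus monkey that held STRA8 RNA but stayed under a limit of SYCE3, a synaptonemal complex gene, were taken from 3 single-cell RNA libraries. They numbered 511 of the 7827 deposited barcodes. The cells were chosen by measured values. A barcode was taken if it held at least 10000 UMIs (unique molecular identifiers, the counted RNA molecules), 2% to 20% of them in 13 mitochondrial genes. In CPM, the UMIs of a gene scaled to the same total in every barcode, it also had to hold at least 50 of STRA8, under 200 of POU5F1, under 500 of SYCE3 and under 100 of EGR4 and PIWIL4 together. These STRA8-positive cells were compared with 1037 STRA8-low cells, which met the same limits but had under 50 CPM of STRA8. For orientation, 458 POU5F1-high cells (POU5F1 at or over 200 CPM, an early state) and 116 SYCE3-high cells (SYCE3 at or over 500 CPM) were gated as well.

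All germ cells came from the wildtype embryonic stem cell line 15XRi-AGVT#7, in which EGFP reports TFAP2C, a gene of early germ cells, and tdTomato reports DDX4, a gene of later ones. They were cultured in xenogeneic reconstituted ovaries, aggregates with mouse ovarian somatic cells, and all 3 titles carry the mark ag49+52. The libraries differ in the embryonic day of the mouse cells (E13.5 in 1, E14.5 in another, E15.5 in the third), and each stage has a single library, so stage and library cannot be told apart. Sorting took germ cells by either reporter and mouse cells by the absence of both, and the fractions were combined before loading, so cell numbers in a library do not give the makeup of the aggregate. The labels call the cells early oogonia. Wherever 3 values stand in a row below, they are in the order of the mouse stages.

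In germ cells about to leave mitosis, retinoic acid switches on STRA8. With its partner MEIOSIN the STRA8 protein turns on meiotic genes, and the cell copies its DNA a last time and enters meiotic prophase, in which the synaptonemal complex joins homologous chromosomes. REC8, a cohesin subunit that holds sister chromatids together in meiosis, CRABP2, which binds retinoic acid inside the cell, and the homeobox gene ANHX served as further markers.

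The STRA8-positive cells numbered 140, 94 and 277, with median depths of 52822, 35233.5, 46636 UMIs. The STRA8-low cells numbered 293, 261 and 483, with 58534, 44124 and 47551 UMIs. The median mitochondrial share was 7.07, 7.38 and 9.27 percent in STRA8-positive and 6.35, 6.49 and 8.87 percent in STRA8-low cells, and the part of this and of depth in the differences below was not tested. The libraries listed some of the same barcode sequences: 199 were common to E13.5 and E14.5, 643 to E13.5 and E15.5, and 212 to E14.5 and E15.5. Of the STRA8-positive cells 81, 9 and 99 had such a barcode, and 0 shared barcodes lay in a gated class of both libraries. The counts of the main comparison are therefore also given without them.

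The germ cell label held. DAZL, an RNA-binding protein gene of germ cells, had a UMI in 100, 98.9 and 100 percent of STRA8-positive cells and DDX4, a germ cell helicase gene, in 97.1, 96.8 and 95.3 percent. In barcodes with under 2% mitochondrial UMIs, where the mouse somatic markers were high, DAZL had a UMI in 6.31, 4.83 and 8.56 percent at median depths of 6457, 6699 and 5298 UMIs. TFAP2C was at 7.72, 8.61 and 8.01 CPM in STRA8-positive cells, against 100.4, 97.9 and 125 CPM in POU5F1-high cells. SPO11, whose product cuts DNA to start meiotic recombination, was at 0.271, 0.594 and 0.147 CPM, against 22.3, 73.7 and 52.3 CPM in SYCE3-high cells. TFAP2C was thus far below its level in POU5F1-high cells, and SPO11 far below its level in SYCE3-high cells.

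Mouse marker RNA was compared between the classes. The 27 mouse somatic markers summed to 384, 438 and 430 CPM in STRA8-positive and 335, 419.6 and 353 CPM in STRA8-low cells. The sum was thus higher in the STRA8-positive cells of each library. AMHR2, a gene of supporting and stromal cells, was at 7.59, 5.64 and 5.36 CPM in STRA8-positive cells, against 291, 136 and 359.5 CPM in the low-mitochondrial barcodes. The endothelial gene CDH5 and the blood cell gene PTPRC each had 0, 0 and 1 UMIs. Most abundant of the list were KRT19, a keratin gene of surface epithelium, at 175, 235 and 154 CPM against 157, 216 and 134 CPM, and FST, the activin-binding follistatin gene, at 50.8, 54.3 and 73.2 CPM against 44.3, 45.8 and 55.2 CPM. Neither passed the test described below, and the part of mouse marker RNA in the results was not tested beyond the setting given with NR2F1.

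STRA8 was at 102, 109 and 116 CPM in the summed STRA8-positive cells and at 14.4, 12.9 and 15.2 CPM in STRA8-low cells, values that the choice of cells fixed. It was at 1.35, 1.78 and 2.07 CPM in the low-mitochondrial barcodes. Among STRA8-low cells 132, 148 and 228 had no STRA8 UMI, so that class holds cells with some STRA8 and cells with none detected. Among STRA8-positive cells 2, 6 and 6 passed on 1 STRA8 UMI and 7, 22 and 23 on 2.

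The other markers came with the rule and are described without a test. REC8 was at 217, 222 and 252 CPM in STRA8-positive and 79.5, 63.2 and 104 CPM in STRA8-low cells. ANHX was at 240.3, 238 and 305 CPM against 184, 159 and 209.7 CPM, and CRABP2 at 166, 136 and 128 CPM against 114, 104 and 61.1 CPM. For each of the 3 genes the lowest STRA8-positive value lay above the highest STRA8-low value. Thinned to 20000 UMIs a cell, REC8 had a UMI in 84.6, 85.9 and 90.6 percent of STRA8-positive and 53.7, 52.8 and 61.8 percent of STRA8-low cells, so many cells under the STRA8 limit held REC8 too; unthinned, the shares were 93.6, 92.6 and 95.3 and 79.9, 69.3 and 79.5 percent. In low-mitochondrial barcodes it was 3.36, 1.93 and 5.07 percent.

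**Figure D1:**
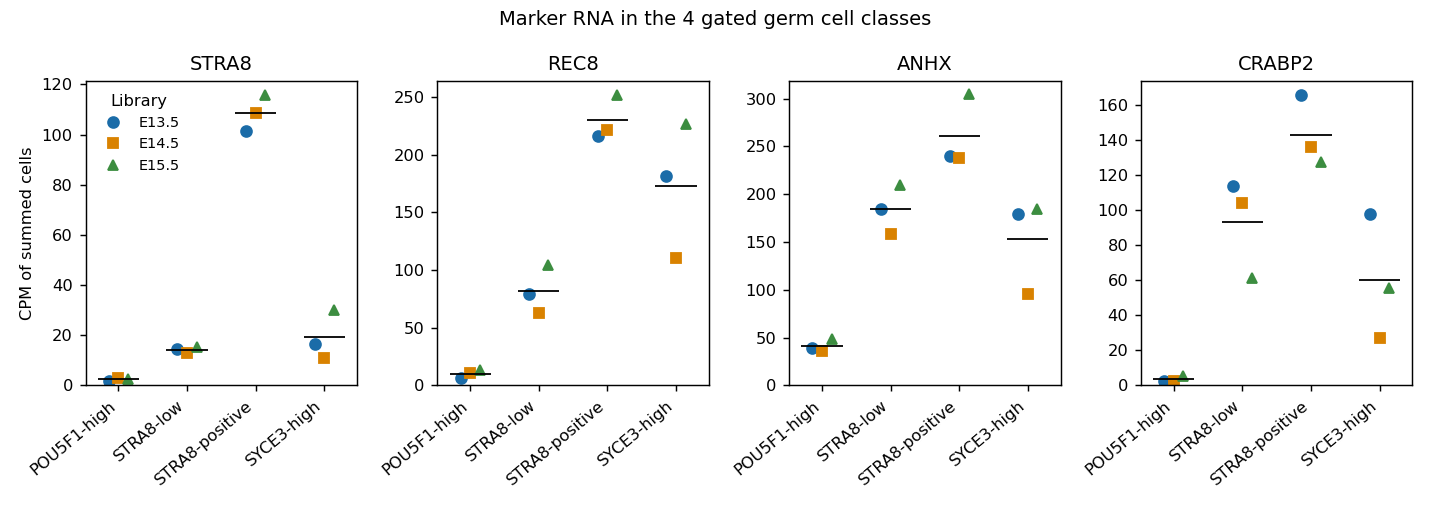
CPM of STRA8, REC8, ANHX and CRABP2 (y axes) in the summed cells of the 4 gated classes (x axes); each symbol is 1 library and the line is the mean of the 3 libraries. The means of all 4 genes are highest in STRA8-positive cells; REC8 is at 217, 222 and 252 CPM there and at 182, 110.1 and 227 CPM in SYCE3-high cells.

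The limit of 50 CPM ran through a continuous range. Just below it, 79, 64 and 148 cells at 25 to 50 CPM of STRA8 had 109, 82.6 and 152 CPM of REC8. Just above it, 53, 35 and 89 cells at 50 to 75 CPM had 163, 135.3 and 157 CPM, and the REC8 step was smallest in E15.5. ANHX was at 196, 173 and 243 CPM just below the limit and 255, 213 and 278 CPM just above. CRABP2 was at 150, 193 and 77.5 CPM just below and 168, 119 and 99.6 CPM just above. The markers thus did not step up together, as CRABP2 was lower above the limit in E14.5.

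STRA8-positive cells made up 32.3% of the cells within the limits in the E13.5 library (140 of 433, with a 95% interval of 27.9 to 37.0 by the exact Clopper-Pearson method). For E14.5 the share was 26.5% (94 of 355, 21.96 to 31.4) and for E15.5 36.4% (277 of 760, 33.02 to 39.98). The E14.5 interval lay below that of E15.5, and intervals cover counting error only. At a limit of 100 CPM the shares were 14.55, 11.8 and 16.97 percent, and with cells thinned to 20000 UMIs they were 45.7, 39.6 and 48.9 percent. Thinned cells were gated anew, and at that depth a single STRA8 UMI meets the limit of 50 CPM. The thinned class is therefore looser, with 193, 130 and 356 cells. The level of the share moved with the limit and with thinning, and E14.5 was lowest each time.

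The main comparison asked how STRA8-positive cells differ from STRA8-low cells of the same library. Genes of G2 and mitosis and replication-dependent histone genes were lower, while MEIOC, RBM46, 4 retinoic acid genes and 6 genes of the HOX list were higher. Genes of the synaptonemal complex did not pass the test in either direction. UMIs were summed per library and class and tested with edgeR (quasi-likelihood), keeping each library as a block, and p was adjusted after Benjamini-Hochberg over 15431 genes, the gating genes left out. At an adjusted p under 0.05, 600 genes passed (3.89%): 203 were higher (1.32%) and 397 lower (2.57%). A difference of 2-fold or more was seen for 13 of the higher (0.0842% of those tested) and 63 of the lower genes (0.408%). Without regard to the test, 13% of genes were higher and 7.26% lower with no overlap between the classes. The median log2 fold change of all genes was -0.0023.

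The number of calls depended on which of the 3 libraries, which are also 3 mouse stages, were in the fit. Without barcodes listed in more than 1 library, 423 genes were higher and 559 lower. All 203 higher genes and all 391 lower genes that could be fitted there kept their direction. Leaving out E13.5 left 35 higher and 117 lower genes, leaving out E15.5 left 18 and 111, and leaving out E14.5 left 148 and 296. Without the library block 10 were higher and 71 lower.

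Among the regulators of meiotic entry, MEIOC and RBM46 were higher. Their products work with YTHDC2 in germ cells that enter meiosis and lower the RNA of mitotic genes. MEIOC was at 52.97, 54.05 and 40.9 CPM in STRA8-positive cells and 36.4, 34.7 and 31.6 CPM in STRA8-low cells. Its log2 fold change was 0.46 ± 0.12 (SE; edgeR adjusted p 0.0312, higher in 3 of 3 libraries). RBM46 was at 285, 314 and 283 CPM against 236, 242 and 222 CPM (0.29 ± 0.07, adjusted p 0.019). For both genes the classes did not overlap, and 13% of all genes were likewise higher without overlap. Of the 15 alternative settings, the MEIOC call was lost in 6 (DESeq2, no library block, without E13.5, without E15.5, thinned cells and cells under the G2 and M phase median). The RBM46 call was lost in 4 (no library block, without E13.5, without E15.5 and thinned cells). YTHDC2 was at 30.5, 32.4 and 27.03 CPM against 25.6, 22.8 and 21.6 CPM and did not pass (0.31 ± 0.10, adjusted p 0.102).

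MEIOSIN, the partner of STRA8, was scarce in both classes. It was at 2.30, 5.05 and 3.09 CPM against 2.39, 3.10 and 3.37 CPM (0.05 ± 0.25, adjusted p 0.954), with overlapping values. In SYCE3-high cells it was at 49.6, 59.3 and 61.5 CPM. ZGLP1, a transcription factor of the oogenic program, was at 63.3, 83.7 and 65.5 CPM against 53.9, 63.1 and 52.8 CPM and did not pass (0.26 ± 0.12, adjusted p 0.246); in SYCE3-high cells it was at 6.47, 0.847 and 11.9 CPM. DAZL, TCFL5 and ZNF483 had log2 fold changes of 0.17, 0.20 and 0.04 and did not pass either. Of the 10 genes of this list REC8 and ANHX came with the rule, and of the remaining 8 MEIOC and RBM46 passed.

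Of 19 tested retinoic acid signalling genes 4 were higher and 0 lower, with a median log2 fold change of 0.24. CYP26A1, the enzyme that breaks down retinoic acid and is itself induced by it, was at 24.9, 46.03 and 34.3 CPM against 17.1, 24.3 and 15.1 CPM (0.86 ± 0.13, adjusted p 0.000884). RARB, a receptor gene that is also a target of retinoic acid, was at 40.9, 48.1 and 41.5 CPM against 30.4, 27.3 and 27.6 CPM (0.55 ± 0.10, adjusted p 0.00472). The classes did not overlap for either gene, as for 13% of all genes on the higher side. RBP4, the secreted retinol carrier, was at 17.2, 14.6 and 32.03 CPM against 12.2, 9.80 and 17.9 CPM (0.61 ± 0.16, adjusted p 0.0436), and its values overlapped. The RBP4 call was lost in 7 of the 15 settings. Among these were DESeq2 and the fit without the tenth of cells with most mouse marker RNA. The list median was 0.24 with E15.5 left out, but 0 of the 19 genes passed there, and 0 passed without the library block.

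On the HOX list, 6 of 31 genes were higher and 0 lower, among them HOXB4, HOXB5 and the cofactor genes MEIS1 and MEIS2. HOXB5 was at 82.8, 92.1 and 110.0 CPM against 59.6, 61.4 and 60.3 CPM (0.61 ± 0.11, adjusted p 0.00334). MEIS1 was at 22.9, 27.3 and 32.8 CPM against 17.4, 13.9 and 20.1 CPM (0.63 ± 0.12, adjusted p 0.00431). Neither gene overlapped between the classes, as for 13% of all genes on the higher side. With E15.5 left out 0 of 30 genes passed, and without the library block 0 of 31.

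Among called genes with a symbol, at least 20 CPM in the higher class and the same direction in all libraries, the largest differences upward, the marker REC8 aside, were in RGS16, IRF9, ZEB2, CYP26A1, SKAP1, SESN3, PAK3, RFX6 and GAS1. RGS16, a brake on G protein signalling, was at 21.7, 23.8 and 26.96 CPM against 9.93, 9.64 and 13.8 CPM (1.06 ± 0.15, adjusted p 0.000511). IRF9, a transcription factor of the interferon response, was at 19.2, 23.8 and 25.05 CPM against 9.43, 8.33 and 13.51 CPM (1.04 ± 0.13, adjusted p 0.000205). SESN3, which encodes a sestrin of the stress response, was at 84.3, 87.6 and 82.6 CPM against 51.1, 41.5 and 48.1 CPM (0.80 ± 0.09, adjusted p 6.39e-05) and passed in all 15 alternative settings tried. The zinc finger gene ZEB2 was at 70.8, 59.7 and 82.7 CPM against 40.3, 31.2 and 41.9 CPM (0.87 ± 0.12). None of the 9 genes overlapped between the classes, which their choice by size and direction favours. Of all genes tested, 13% were higher without overlap.

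**Figure D2:**
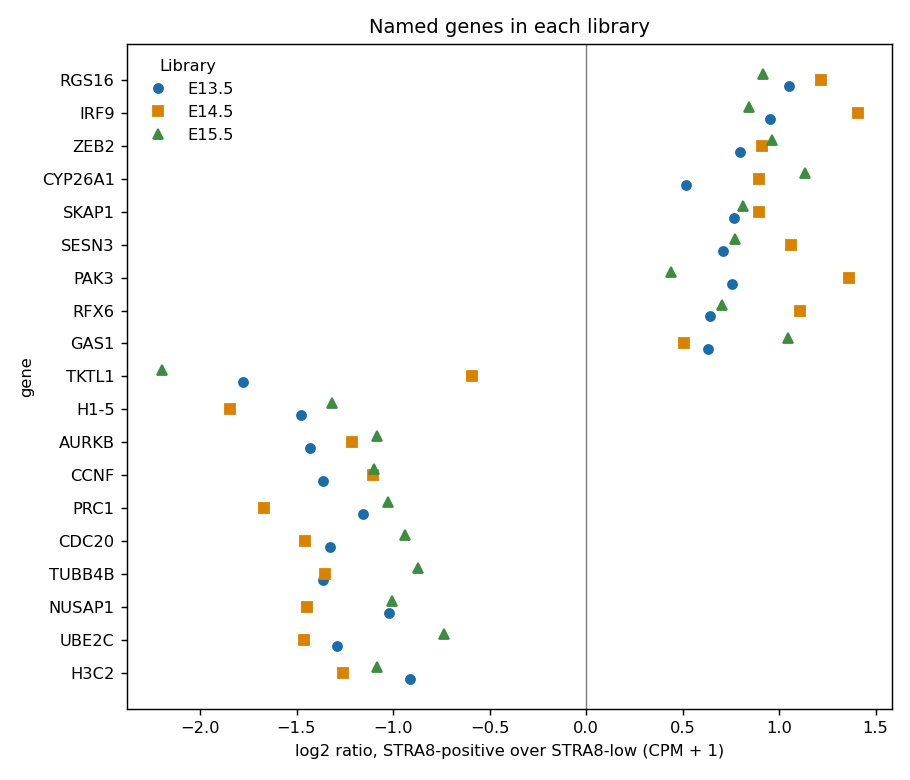
Log2 ratio of CPM + 1 in STRA8-positive over STRA8-low cells (x axis) for the genes with the largest called differences among those of at least 20 CPM in the higher class (y axis); each symbol is 1 library and the grey line marks equal levels. The 9 upper genes lie right of that line and the 10 lower genes left of it in each library, and the TKTL1 points run from -2.20 to -0.59.

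On the lower side, 23 of 25 G2 and M phase genes passed, 0 were higher and the median log2 fold change was -0.85, against 2.57% of all genes called lower. AURKB, a kinase of chromosome segregation, was at 7.99, 10.1 and 11.1 CPM against 23.3, 24.7 and 24.7 CPM (-1.32 ± 0.12, adjusted p 1.5e-05). CDC20, which activates the anaphase-promoting complex, was at 85.6, 84.9 and 126 CPM against 216, 234 and 242 CPM (-1.26 ± 0.20, adjusted p 0.00126). TUBB4B, a tubulin gene outside the list, was at 260.1, 268 and 403 CPM against 669.6, 685 and 737 CPM (-1.22 ± 0.12, adjusted p 1.5e-05). In all 3 genes every STRA8-positive value lay below every STRA8-low value, as for 7.26% of all genes. CCNF, PRC1, NUSAP1 and UBE2C, all genes of mitosis, had log2 fold changes of -1.29, -1.27, -1.18 and -1.18. TOP2A and CENPE did not pass (-0.43 and -0.42). Mitotic RNA was still present: the list summed to 2616 to 3319 CPM in STRA8-positive cells, against 4562 to 5327 CPM. In summed cells, fewer cells in these phases and less RNA per cell cannot be told apart. The median of the list sum per cell was 2058, 1561 and 1706 CPM, against 2335, 2246 and 2036 CPM in STRA8-low cells. The part of either in the lower sums was not tested.

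Histone genes that are switched on with DNA replication gave 7 lower and 0 higher of 13 tested, against 2.57% of all genes called lower. The list has 28 genes, of which 13 were found. The linker histone gene H1-5 was at 37.7, 23.5 and 19.5 CPM against 107, 86.8 and 50.1 CPM (-1.56 ± 0.20, adjusted p 0.000205), and H1-1 at 52.02, 45.1 and 38.6 CPM against 88.1, 105 and 83.2 CPM (-1.05 ± 0.21, adjusted p 0.00664). H3C2 was at 18.02, 14.3 and 3.23 CPM against 34.7, 35.5 and 7.98 CPM (-1.17 ± 0.18, adjusted p 0.00104), and its E15.5 values were the lowest in both classes. Histone genes resemble each other closely, so their reads may be split among copies. How fully the 3' chemistry of these libraries captures histone RNA was not tested.

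The S phase list had 3 of 30 genes lower and 0 higher, with a median of -0.08. RRM2, a subunit of the enzyme that makes DNA building blocks, was at 53.8, 35.3 and 38.9 CPM against 69.5, 67.7 and 68.03 CPM (-0.72 ± 0.13, adjusted p 0.00309). CCNE2 and E2F1, which act at the entry into S phase, had log2 fold changes of -0.49 and -0.39. The replication helicase genes MCM3 (0.00) and MCM7 (-0.11) did not pass. Among 12 D cyclins and cell cycle inhibitors 1 was higher and 0 were lower. CCND1, a cyclin of G1, was higher at 66.4, 69.5 and 67.1 CPM against 44.3, 37.4 and 39.97 CPM (0.68 ± 0.12, adjusted p 0.00282). Its values did not overlap, as for 13% of all genes on the higher side. The CCND1 call was lost without the library block and in cells under the G2 and M phase median.

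The comparison was repeated in cells of both classes whose G2 and M phase list lay under the median of their library, where 14 genes were higher and 66 lower. Of the 203 higher genes all 202 that could be fitted kept their direction and 13 passed. Of the 397 lower genes 338 of 394 kept their direction and 59 passed. The 25 G2 and M phase genes gave 0 calls, which the choice of cells sets, and the 13 histone genes gave 0 with a median of -0.01. SESN3 (0.80), IRF9 (0.80), HOXB5 (0.82) and RBM46 (0.33) passed as higher. UTF1 (-0.66), TCL1B (-1.27), PRDM1 (-0.75) and ID4 (-0.82) passed as lower. MEIOC (0.60), CYP26A1 (0.53), RARB (0.51) and CCND1 (0.55) did not pass in these fewer cells.

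Of 16 pluripotency-associated genes 4 were lower and 1 higher. UTF1, a chromatin gene of pluripotent cells, was at 49.04, 65.9 and 42.2 CPM against 80.5, 86.2 and 75.2 CPM (-0.71 ± 0.09, adjusted p 0.000102) and passed in all 15 alternatives. TCL1B was at 3.39, 3.56 and 6.68 CPM against 11.5, 12.4 and 13.1 CPM (-1.30 ± 0.20, adjusted p 0.00101). KLF4 (-0.75) and TFCP2L1 (-0.41), transcription factor genes of pluripotent cells, were lower too. LIN28A, an RNA-binding repressor of let-7 microRNAs, was higher at 165, 156 and 139 CPM against 98.4, 107 and 98.2 CPM (0.55 ± 0.12, adjusted p 0.0164), a call lost in 6 of the 15 settings. Of 10 germ cell specification genes 3 were lower and 0 higher: PRDM1 (-0.57), a repressor of somatic genes, PDPN (-0.50) and NANOS3 (-0.43). The receptor gene KIT was at 122, 109 and 95.7 CPM against 106, 97.1 and 90.04 CPM and did not pass.

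Chromosome axis genes were transcribed in both classes. Of 11 synaptonemal complex and axis genes 0 passed, by edgeR and by DESeq2, and 4 were higher when the fit held the 2 compared classes only. Over all genes 2918 had an unadjusted p under 0.05. SYCP3, a lateral element gene, was at 175, 189 and 162 CPM against 153, 154 and 139.7 CPM (0.19 ± 0.11, adjusted p 0.361). Of 10 break formation genes IHO1 alone passed, lower at 13.95, 10.7 and 13.96 CPM against 23.1, 22.1 and 22.9 CPM (-0.82 ± 0.13, adjusted p 0.00138). Of 25 recombination genes MND1, a helper of the recombinases, alone passed, lower at 95.8, 85.8 and 86.1 CPM against 134.8, 139 and 118 CPM (-0.57 ± 0.09, adjusted p 0.00116). The meiotic cohesin genes SMC1B (-0.15) and STAG3 (-0.06) did not pass. RAD21 (-0.35, adjusted p 0.00505), the mitotic counterpart of REC8, and CDCA5 (-0.75, adjusted p 0.000511), which protects cohesin in dividing cells, were the 2 of 10 mitotic cohesin genes that were lower.

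Other lists gave few calls. SOHLH2, an oocyte transcription factor gene, was the 1 higher of 13 oocyte genes (0.48) and TCF7L2 the 1 higher of 19 WNT genes (0.41). ID4 was the 1 lower of 18 BMP and SMAD genes (-0.67) and SUZ12 the 1 lower of 18 polycomb genes (-0.37). The stress genes ATF3 (-1.15) and DUSP1 (-0.56) were lower, the 2 calls among 14. Among 17 p53 and apoptosis genes ZMAT3 was higher (0.32) and TP53I3 lower (-0.62). The lists of 20 piRNA, 11 DNA methylation and 7 telomere attachment genes had 0 calls by edgeR, and DESeq2 called 1 gene of them, a DNA methylation gene, lower. Of 19 tested mouse somatic markers NR2F1 alone passed, higher at 36.6, 29.99 and 52.8 CPM against 21.8, 24.1 and 28.9 CPM (0.64 ± 0.18, adjusted p 0.0492). Without the tenth of cells with most mouse marker RNA 199 genes were higher and 377 lower.

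TKTL1, a transketolase-like gene and the 1 call among 24 genes of sugar metabolism, had the largest difference downward among called genes with a symbol, at least 20 CPM in the higher class and the same direction in all libraries. It was at 0.813, 33.9 and 6.17 CPM against 5.22, 51.6 and 31.9 CPM (-1.67 ± 0.43, adjusted p 0.0333), with wide differences between libraries in both classes and overlap between the classes. The call was lost with DESeq2, without the library block, without E13.5, without E15.5 and in cells under the G2 and M phase median.

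**Figure D3:**
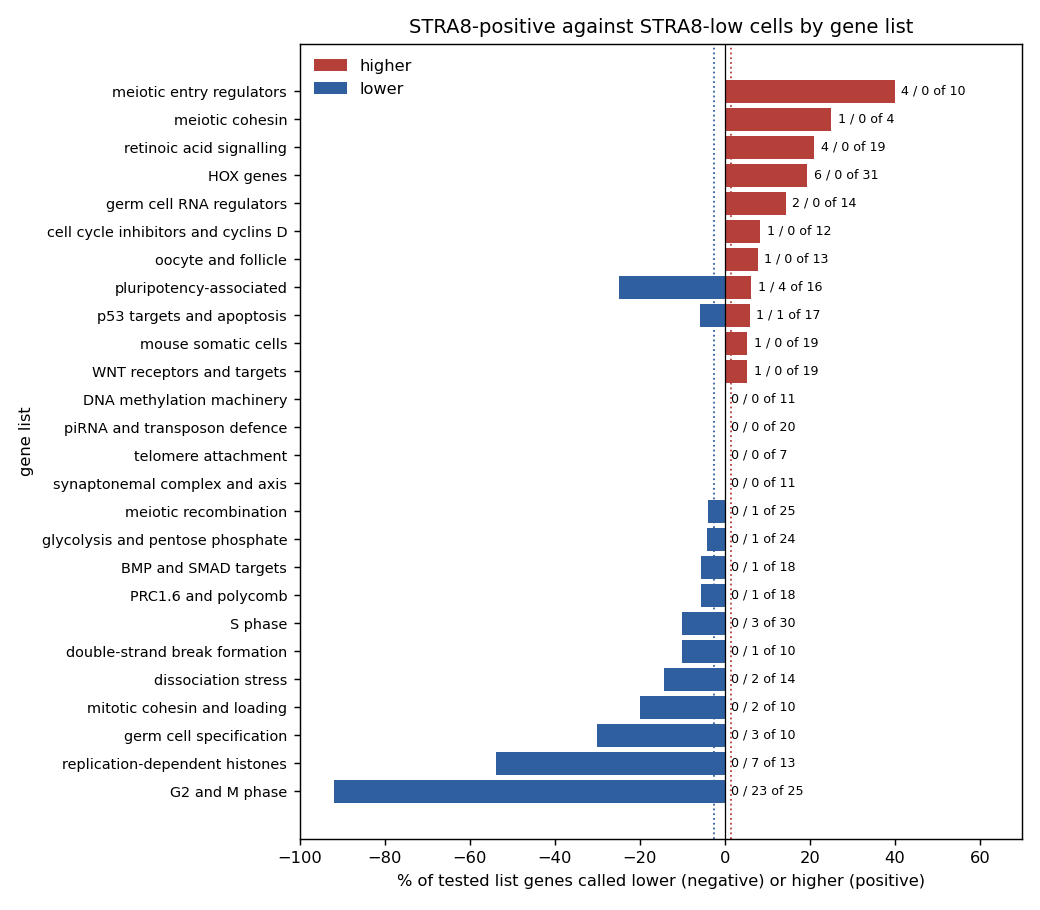
Percent of the tested genes of each list (y axis) called higher (positive, red) or lower (negative, blue) in STRA8-positive than in STRA8-low cells (x axis), with the counts beside each bar; dotted lines mark the shares of all genes, 1.32% higher and 2.57% lower. The G2 and M phase list has the longest bar, with 23 of 25 genes lower.

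Levels of other genes differed with the amount of STRA8. The cells within the limits were split into bands: 508 cells with no STRA8 UMI, 529 with less than 50 CPM, 277 at 50 to 100, 181 at 100 to 200 and 53 at 200 CPM or more. The top band held 11, 6 and 36 cells. Because STRA8 chose the cells and the bands, these values are a description. REC8 from the lowest band to the highest was at 52.04, 98.98, 169.9, 258 and 404 CPM in E13.5. In E14.5 it was at 52.1, 75.4, 152, 292 and 400.2 CPM, and for E15.5 the series was 87.1, 117, 183, 286 and 499 CPM. REC8 was higher in each next band of every library, also without the thin top band.

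In E15.5, which had most cells, RBM46 was at 205, 235, 261, 296 and 355 CPM over the bands and RARB at 23.6, 30.7, 40.6, 40.9 and 47.7 CPM. CCND1 was at 33.2, 45.3, 60.5, 72.3 and 85.3 CPM and SESN3 at 42.4, 52.5, 69.5, 94.4 and 116 CPM. These 4 genes were at their lowest in cells without STRA8 UMIs and at their highest in the top band. MEIOSIN was at 4.36, 2.58, 2.82, 3.80 and 2.51 CPM in E15.5, with no such order, and at 3.10, 3.11, 4.89, 4.48 and 10.7 CPM in E14.5, where the last value is that of 6 cells.

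Mitotic RNA was lower in the top band than in cells without STRA8 UMIs, though not in steps through every band. In E15.5 CDC20 was at 233, 249, 158, 101 and 30.1 CPM over the bands, and the G2 and M phase list summed to 4356, 4725, 3580.4, 2777 and 1876 CPM. In E13.5 that list summed to 5786, 5001, 4161, 2071 and 2432 CPM and H1-5 was at 112, 103, 53.5, 13.7 and 23.6 CPM. UTF1 differed already below the limit, at 92.9 CPM in cells without and 61.2 CPM in cells with STRA8 UMIs in E15.5. SYCP3 was at 147, 134, 162, 154.8 and 179 CPM and the synaptonemal complex and axis list summed to 931, 941, 981, 964 and 1019.5 CPM there, a narrower range than that of the mitotic genes. SKP1, the most abundant gene of that list, made up much of the sum. It was at 469 CPM of the 980 CPM of the list in all STRA8-positive cells of E15.5. The sum therefore says little on the less abundant genes of the list.

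**Figure D4:**
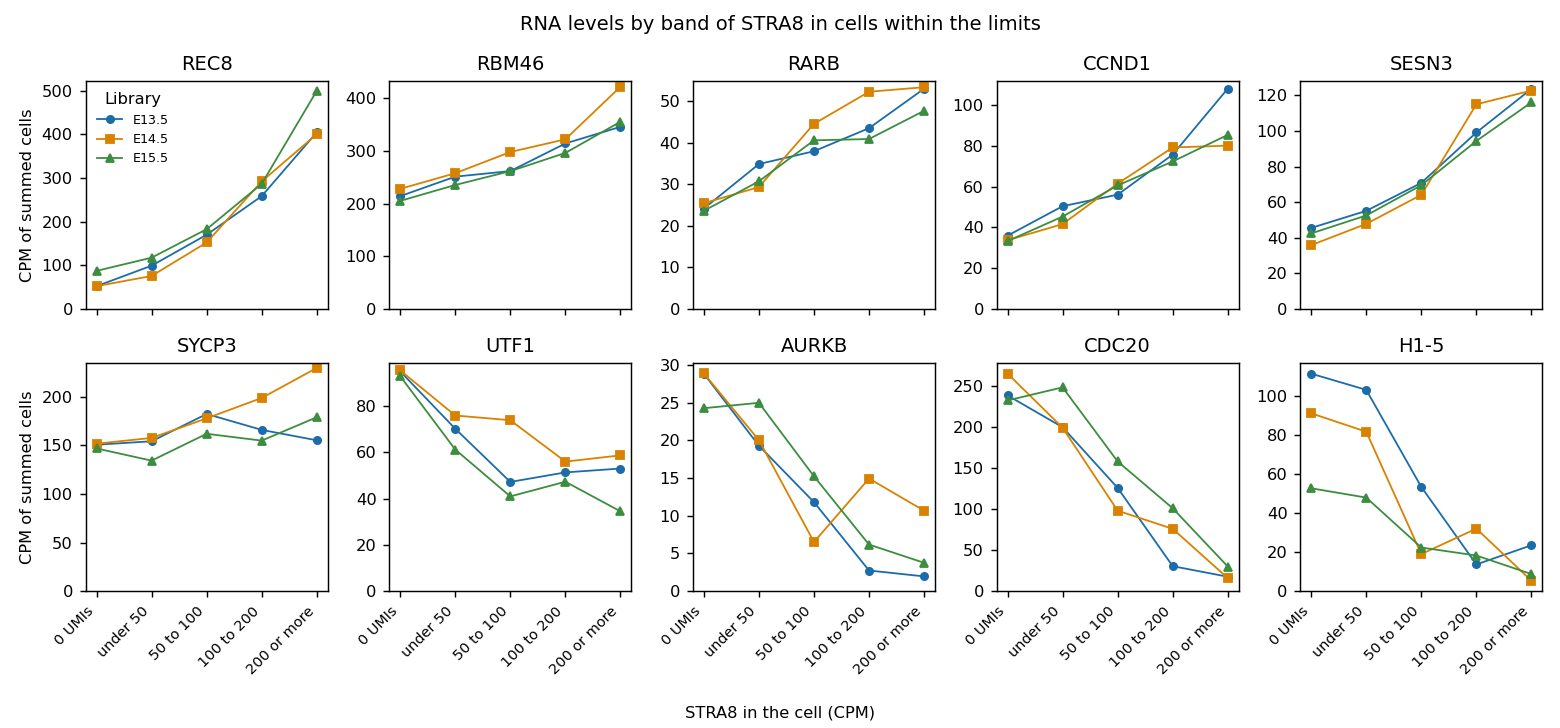
CPM of 10 genes (y axes) in the summed cells of each band of STRA8 (x axes, CPM of the cell), with 1 line per library. REC8, RBM46, RARB, CCND1 and SESN3 are higher in the top band than in the lowest and UTF1, AURKB, CDC20 and H1-5 lower, while SYCP3 is at 147 CPM in the lowest and 179 CPM in the highest band of E15.5; the top band holds 11, 6 and 36 cells.

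SYCE3-high cells differed from STRA8-positive cells in many more genes. Of the same 15431 genes 8424 passed (54.6%): 4115 were higher (26.7%) and 4309 lower (27.9%) in SYCE3-high cells, and 28.0% were higher and 25.1% lower with no overlap. This comparison uses the same STRA8-positive sums as the first, and SYCE3, which chose the class, belongs to the synaptonemal complex, so genes of that complex are not independent of the choice. All 11 synaptonemal complex and axis genes tested were higher (median log2 fold change 2.75), as were all 7 telomere attachment genes, 9 of 10 break formation genes and 18 of 25 recombination genes. SYCP3 was at 1029, 1565 and 1145 CPM in SYCE3-high cells. SPO11 had a log2 fold change of 7.35 ± 0.36 (edgeR adjusted p 1.14e-11).

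Between these classes the regulators of meiotic entry parted. MEIOSIN was higher in SYCE3-high cells (4.08 ± 0.23, adjusted p 5.03e-11, edgeR), and so was MEIOC, at 203, 260.1 and 178 CPM (2.04 ± 0.12, adjusted p 1.89e-10). ZGLP1 was lower (-3.19 ± 0.24, adjusted p 3.68e-09). Of 19 retinoic acid genes 3 were higher and 10 lower, and of 31 genes of the HOX list 5 were higher and 16 lower. Pluripotency-associated genes were lower in 11 of 16, germ cell specification genes in 8 of 10, with NANOS3 at -3.47, and BMP and SMAD genes in 16 of 18. The G2 and M phase list had 6 genes higher and 6 lower of 25.

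Within STRA8-positive cells few genes differed between the mouse stages by the rule of 2-fold and at least 20 CPM, on log2 ratios of CPM + 1. In E14.5 5 of 7667 genes were higher (0.0652%) and 16 lower (0.209%) than in E13.5. In E15.5 4 of 7652 were higher (0.0523%) and 19 lower (0.248%) than in E13.5, and 12 of 7649 higher (0.157%) and 11 lower (0.144%) than in E14.5. No test is possible with 1 library per stage, and the intervals below are exact 95% Poisson intervals for counting error.

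TKTL1 was at 0.813 CPM in E13.5 (0.298 to 1.77, 6 UMIs), 33.9 CPM (27.9 to 40.7) in E14.5 and 6.17 CPM (4.92 to 7.64) in E15.5. RBP4 was highest in E15.5 (29.1 to 35.2), with 14.3 to 20.5 CPM in E13.5 and 10.8 to 19.2 CPM in E14.5. ASB9, an adaptor gene of a ubiquitin ligase, was at 87.5, 67.4 and 159.7 CPM. GIP, a gut hormone gene, was at 58.7, 47.5 and 16.3 CPM, the pluripotency-associated gene DPPA4 at 70.2, 52.9 and 28.2 CPM and the linker histone gene H1-4 at 293, 242 and 122 CPM, each lowest in E15.5. In STRA8-low cells DPPA4 was at 74.9, 61.2 and 35.2 CPM and H1-4 at 402, 411 and 196 CPM, so the E15.5 library was lowest there too. RPL32, RPS27, PPIA and H3F3A also passed the rule, and they have near-identical gene copies that can share reads.

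**Figure D5:**
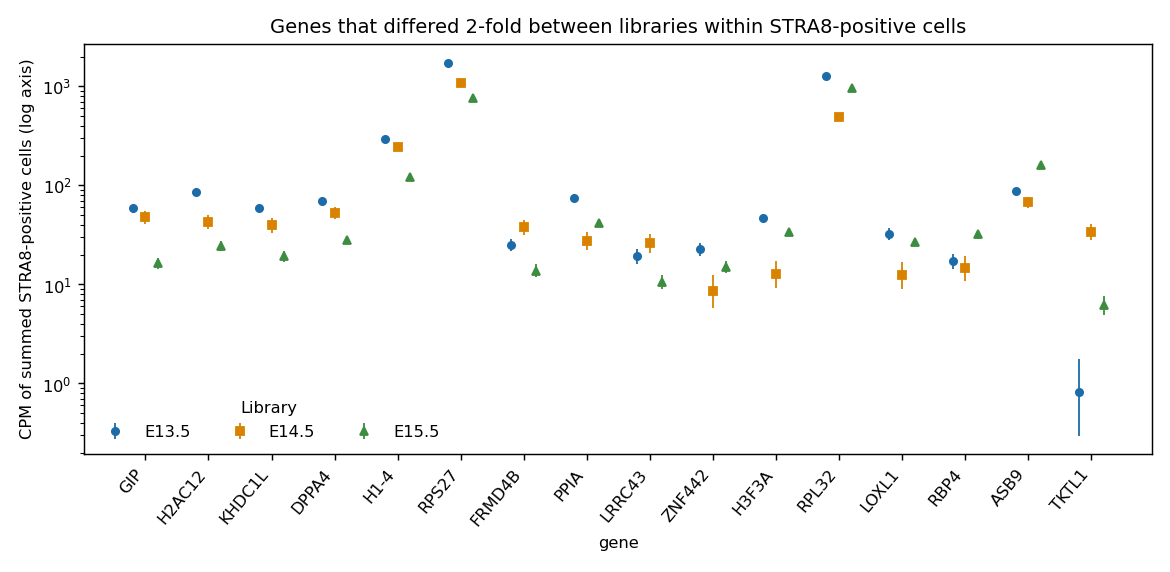
CPM (y axis, log scale) in summed STRA8-positive cells of the named genes that differed at least 2-fold between libraries (x axis, ordered by the ratio of E15.5 to E13.5); each symbol is 1 library with its exact 95% Poisson interval. GIP, at 58.7, 47.5 and 16.3 CPM, lies at one end and TKTL1, at 0.813, 33.9 and 6.17 CPM, at the other.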

How the data were processed

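Single-cell RNA was measured in 3 libraries with 10x Genomics 3' v3.1 chemistry, of 44762884, 30607553 and 70850640 UMIs. The deposited values are raw UMI counts of 26017 monkey features per barcode. Cell Ranger 6.0.1 is named in the header of the deposited counts, and the genome build is not given in the sources used here. By gene number 669 of 9282 LOC features received a symbol, and 11 list genes, MEIOSIN among them, were found under an older symbol. Members, lists and tests were chosen with earlier results of these data known. No doublets were called. STRA8-positive cells reached 128496 UMIs and STRA8-low cells 181153.

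From these counts, UMIs of each class with at least 20 cells were added up in each library. The resulting 12 sums were fitted with edgeR 4.0.16 (R 4.3.3, limma 3.58.1, filterByExpr, TMM). Sums of 1 library share its culture, so library was the block. DESeq2 1.42.0 was an alternative, and the scripts were tested on simulated data. Of 453 genes on 26 lists 434 were found. Named were the meiotic entry list, the 10 largest called differences each way of the main comparison (6 for SYCE3-high cells) with the same direction in all libraries and 20 CPM in the higher class, up to 4 called and 2 abundant genes per list, and up to 6 genes per library pair. HOXB4, TFCP2L1, CENPE, STAG3, TFAP2C, DDX4 and the mouse markers were named outside that rule, with their values known. Some genes that the rule names are not reported here. Figures and tables were made with Python 3.11.15 (matplotlib 3.10.9, pandas 2.3.3, numpy 2.4.6, scipy 1.17.1).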

Additional observations from a re-analysis of the deposited data

Results flagged for a closer look

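Of 122 named genes compared, 4 were higher in STRA8-positive than in STRA8-low cells in 1 library and lower in another, beyond counting error in both. For this, the STRA8-positive share of the gene's UMIs in both classes was given an exact 95% interval. That interval had to exclude the STRA8-positive share of all UMIs in both classes. The difference between libraries was not tested. In the order of the mouse stages, the log2 ratio of CPM + 1 of GIP was 0.18, -0.12 and -0.40, and that of DNMT1, the maintenance DNA methyltransferase gene, was 0.01, -0.13 and 0.17. ID1, a BMP target, had -0.52, 0.11 and -0.09 and LRRC43 had 0.00, 0.70 and -0.52.

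STRA8 was also found in cells over the SYCE3 limit, which the choice of STRA8-positive cells left out. In E15.5 24.6% of SYCE3-high cells (14 of 57, 95% exact Clopper-Pearson interval 14.1 to 37.8) held at least 50 CPM of STRA8, against 0.803% of POU5F1-high cells (2 of 249, 0.0974 to 2.87). In E13.5 2 of 31 SYCE3-high cells did, and in E14.5 1 of 28.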

How the results depend on the processing

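The 58 named genes called in STRA8-positive against STRA8-low cells kept their direction under the 15 alternatives, except UBE2C (0.00096) and CENPF (0.17) in cells under the median of the G2 and M list. Without the replicate block 3 of 25 higher and 12 of 33 lower named genes passed, and with cells thinned to 20000 UMIs 10 and 18. Thinned cells were gated anew, so their STRA8-positive class took in any cell that kept a STRA8 UMI and met the other limits. Counts of higher and lower genes were 1243 and 1515 with the 2 compared classes only, 531 and 804 at 30000 UMIs or more, 50 and 119 thinned, 353 and 635 with no filter on low counts, and 10 and 71 with no replicate block. They were 457 and 745 with STRA8 at or over 100 CPM, 459 and 709 against cells without STRA8 UMIs, and 14 and 66 under the G2 and M median. Without barcodes listed in more than 1 library, an alternative chosen after seeing the data, 423 were higher. DESeq2 gave 178 and 343. Leaving out 1 library gave 18 to 148 higher and 111 to 296 lower genes. The cause of these moves was not tested.

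SYCE3-high against STRA8-positive counts stayed within 1.5 times in each alternative fitted, the replicate block included. That comparison could not be fitted at 30000 UMIs or without shared barcodes, which left under 20 SYCE3-high cells in a library.

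The share of STRA8-positive cells was 14.55, 11.8 and 16.97 percent at 100 CPM and 45.7, 39.6 and 48.9 percent thinned, and 21.8% in E14.5 at 30000 UMIs.

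Between libraries, the genes higher and lower in E14.5 than E13.5 were 39 and 30 with the gate of 100 CPM and 0 and 4 at 50 CPM or more, with 1 higher at pseudocount 5. For E15.5 over E13.5 they were 15 and 33, 0 and 11, and 2 and 12 under these settings. For E15.5 over E14.5 they were 2 and 0 at 50 CPM or more and 6 and 4 at pseudocount 5, with 27 lower at that gate and 22 lower thinned.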
